A study of Mus musculus with 24 samples.

Results

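Schwann cells and sustentacular cells are the glia that accompany sympathetic nerves and the adrenal medulla. The genes described here are 8 markers of these cells, taken as a fixed list: Sox10, S100b, Foxd3, Erbb3, Cdh19, Fabp7, Gfap and Mbp. All 8 were present among the 21833 protein-coding genes of the table, which held 24 mouse RNA-seq libraries. AG (n = 3) were adrenal glands of Cre-negative mice. AGM (n = 5) were adrenal glands without tumors from Cre-positive mice heterozygous for a MYCN transgene. TI (n = 8) were neuroblastomas of Cre-positive mice with an IGF2BP1 transgene (labelled heterozygous for 1 tumor and homozygous for 7), and TIM (n = 8) were neuroblastomas of Cre-positive mice with both transgenes (no zygosity in the labels). Per the study's methods, mice were backcrossed to C57Bl6/N, and both transgenes sat at Rosa26 behind a stop cassette that an iCRE driven by Dbh, a gene of noradrenergic cells, removes. The labels used here give no age, and per the study AGM glands were taken at the end of the observation period and tumors when termination criteria were met. Per the study, the double transgenic mice had no wildtype Rosa26 locus, so TIM and the homozygous TI mice differ in the number of IGF2BP1 copies as well as in MYCN. Libraries are named by group and a letter, because the columns could not be matched to single samples, so the run, the zygosity and the location of a given tumor were not used.

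Neural crest cells give rise to sympathetic neurons, chromaffin cells and glia. In the glial branch, the transcription factor Sox10 is kept on and is needed for the other glial genes, Foxd3 is a transcription factor of crest cells and glial precursors, and the receptor Erbb3 receives neuregulin from axons. Schwann cell precursors express the cadherin Cdh19 and the fatty acid binding protein Fabp7 (brain type), mature and sustentacular cells carry the calcium binding protein S100b, non-myelinating Schwann cells can carry the filament protein Gfap, and Mbp encodes a protein of compact myelin that other cells also transcribe in other forms.

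The promoter of Foxd3 is shown because this gene had the highest single value of the list. It is also shown because MYCN, a transgene of TIM and AGM but not of TI, encodes a protein that binds the E-box CACGTG. In AGM, Foxd3 was between 0.0328 and 0.0795 FPKM, beside 0.0162 to 0.0736 FPKM in AG, and TIM-h had no read of it. Windows reaching from 250 bases before to 50 bases after the start of transcription were given by RefSeq (GRCm38.p6) for 4 of the 8 genes: Foxd3, Fabp7, S100b and Gfap. The E-box CACGTG, which reads the same on both strands, was found in 1 of these 4 windows, that of Foxd3, beginning 217 bases before the start, and in 7.15% of all 32851 windows. The SOX core motifs ACAAAG and ACAATG were in none of the 4 windows on either strand and in 18.7% and 12.6% of all windows. The 250 bases before the start of Foxd3 (GRCm38.p6, chr4:99656049-99656298, plus strand) are given with the E-box in capitals.
Foxd3: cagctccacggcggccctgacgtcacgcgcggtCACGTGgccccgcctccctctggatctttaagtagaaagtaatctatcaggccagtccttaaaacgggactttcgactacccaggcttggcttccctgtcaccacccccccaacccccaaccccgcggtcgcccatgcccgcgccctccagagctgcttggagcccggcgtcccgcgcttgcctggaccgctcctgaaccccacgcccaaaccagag
The match is a description of these letters. Binding was not measured in these libraries, and a part of MYCN in the level of Foxd3 was not tested.

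Values are FPKM (fragments scaled by the length of the gene and the size of the library), as made by the authors, and are comparable between genes because they are per length. Behind them stood 12334076 to 23683176 reads per library, recovered from the FPKM outside 126 genes with extreme values. With those genes included, the recovered totals were 17434796 to 17893013 in AG and 12468968 to 21353172 in TI. They were 116740738 to 1170004708 in AGM and 58530450 to 888626365 in TIM, so the extreme values lay mostly in AGM and TIM. Depth recomputed from the reads outside those genes gave FPKM 3.54 to 6.47 times the deposited ones. Thus 1 deposited FPKM is a higher level than the usual unit would mean. By the labels, the AG libraries came from a run that held neither AGM nor TIM, so run and group cannot be told apart where AG is compared with either. TIM vs TI is also largely across runs, since 6 of the 8 TI and none of the TIM libraries came from the run of AG. The labels do not say which libraries came from separate mice, and p-values measure the spread between these libraries. In whole tissue, fewer glia and less RNA per glial cell cannot be told apart.

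Sox10, Foxd3, Erbb3, Cdh19 and Fabp7 shared 1 pattern: they were low in glands and in TI, and highest in 2 TIM libraries, TIM-a and TIM-e. Of the 8 genes, these 5 had the 2 highest of the 24 values in TIM-a and TIM-e, with the next highest in TIM-f. They were grouped by this order, so it supports nothing about them. The same 2 libraries were highest for 1.72% of the 10171 tested genes. That set lacks Erbb3 and Cdh19, and Sox10, Foxd3 and Fabp7 entered it only through TIM libraries. S100b was instead highest in glands, Gfap was low throughout, and Mbp was spread over all groups, though highest in TIM-a. Since TIM-a and TIM-e were singled out after their values were seen, they were not tested against other libraries.

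Sox10 (chromosome 15, 79039108 to 79049469, minus strand, GRCm39) was at 0.134, 0.143 and 0.167 FPKM in AG and at 0.133, 0.125, 0.143, 0.140 and 0.168 FPKM in AGM. In TI it ranged from 0.0034 to 0.398 FPKM with a median of 0.0893. In TIM it ranged from 0 to 15.3 FPKM with a median of 0.541. The TIM mean was 3.27 ± 5.58 FPKM (SD, n = 8), its spread larger than the mean, and the TI mean was 0.118 ± 0.125 FPKM (SD, n = 8). The glands were tightly grouped, and 4 of the 8 TIM libraries (TIM-a, TIM-e, TIM-f and TIM-g) were above all 16 libraries of the other groups. TIM-b, TIM-c and TIM-d were within the range of those libraries, and TIM-h was below it. TIM-e at 15.3 FPKM and TIM-a at 8.24 FPKM were 38.5 and 20.7 times the highest value outside TIM, and TIM-f at 1.19 FPKM was 2.99 times that value. In TIM-h no Sox10 read was found, which allows up to 0.011 FPKM (3 reads, counting error only). On the log2(FPKM + 1) scale, TIM lay above TI by 1.1 (SE 0.43, limma FDR = 0.0641), which did not pass the threshold of 0.05.

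Foxd3 (chromosome 4, 99544536 to 99546859, plus strand, GRCm39), whose promoter is printed above, was at 0.0521, 0.0736 and 0.0162 FPKM in AG and between 0.0328 and 0.0795 FPKM in AGM. TI ranged from 0 to 0.304 FPKM with a median of 0.0345, and TIM from 0 to 20.4 FPKM with a median of 0.457. TIM-e (20.4), TIM-a (7.52) and TIM-f (2.86 FPKM) were the highest. In all, 6 of the 8 TIM libraries were above all 16 libraries of the other groups, TIM-c was within their range, and TIM-h had no read. In TIM-e, 4323 reads stood behind the value. The TIM mean was 4.05 ± 7.09 FPKM (SD, n = 8), against 0.0717 ± 0.103 FPKM in TI (SD, n = 8). Foxd3 rose in TIM vs TI by 1.32 (SE 0.45, limma FDR = 0.0353) and in TIM vs AGM by 1.33 (SE 0.51, FDR = 0.0255). In TIM vs AG the difference was 1.35 (SE 0.60, FDR = 0.0659). Foxd3 entered this fit only because 3 TIM libraries reached 1 FPKM, so these calls are not independent of the filter, and by limma-voom neither call held (FDR = 0.162 and 0.182).

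Fabp7 (chromosome 10, 57660956 to 57664554, plus strand, GRCm39) lay between 0.0532 and 0.0904 FPKM in AG, between 0.0399 and 0.139 FPKM in AGM and between 0 and 0.112 FPKM in TI. TIM ranged from 0 to 3.32 FPKM with a median of 0.484, and 2 TIM libraries, TIM-d and TIM-h, had no read. TIM-e (3.32), TIM-a (3.06) and TIM-f (2.16 FPKM) were closer to each other than for Sox10 or Foxd3, and with TIM-g they were the 4 libraries above all other groups. Fabp7 rose in TIM vs TI by 0.83 (SE 0.26, limma FDR = 0.0279) and in TIM vs AGM by 0.75 (SE 0.30, FDR = 0.0334). Fabp7 too entered the fit only through 3 TIM libraries, and by limma-voom neither call held (FDR = 0.176 and 0.428). An exact permutation test on FPKM, which uses no filter, gave an adjusted p of 0.12 for TIM vs TI (12870 splits, two-sided, over 5 comparisons), against 0.0155 for Foxd3 and 0.117 for Sox10.

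**Figure D1:**
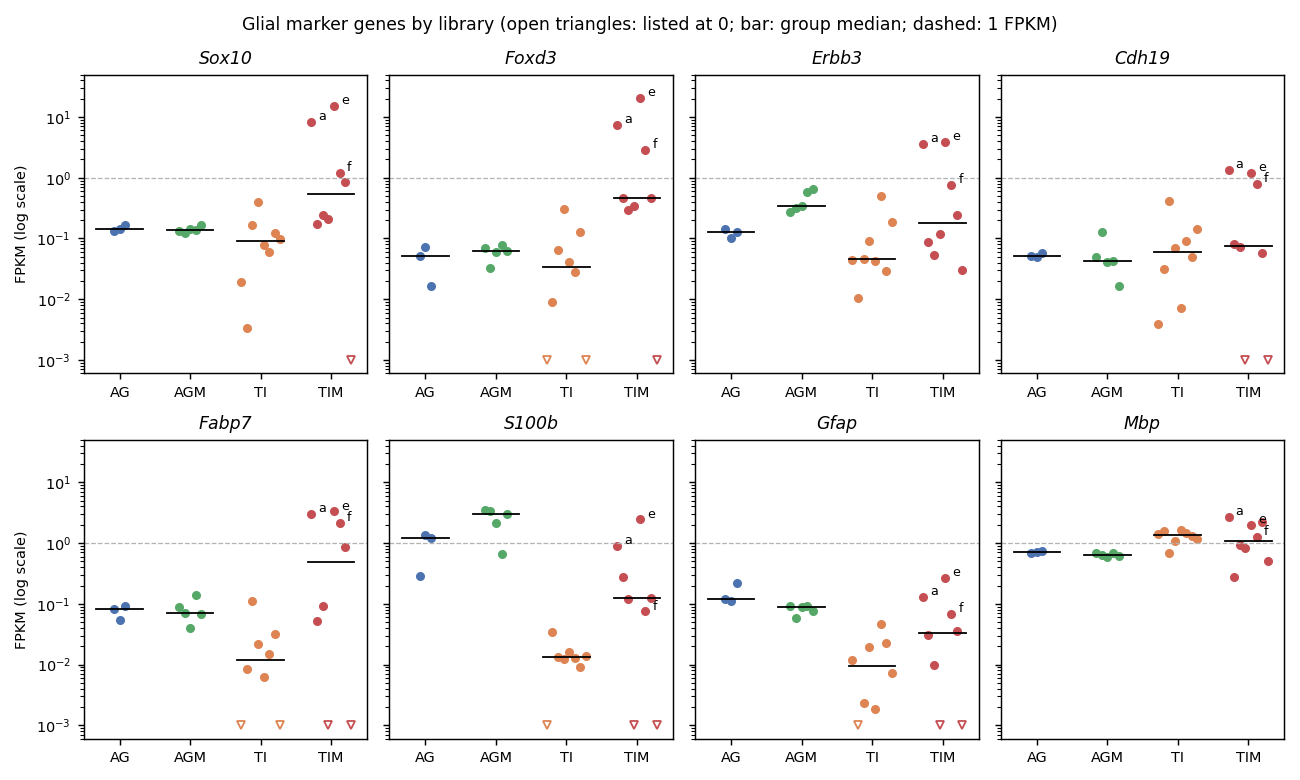
FPKM of the 8 glial markers in each library on a log axis (points, 1 per library; bars, group medians; open triangles at the bottom, libraries listed at 0; dashed line, 1 FPKM), with TIM-a, TIM-e and TIM-f lettered. Sox10, Foxd3, Erbb3, Cdh19 and Fabp7 reach their highest values in TIM-a and TIM-e, S100b is highest in AGM, and Mbp stays between 0.275 and 2.67 FPKM.

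Erbb3 (chromosome 10, 128403392 to 128425811, minus strand, GRCm39) and Cdh19 (chromosome 1, 110815039 to 110905349, minus strand, GRCm39) reached 1 FPKM in TIM-a and TIM-e and in no other library, so they stayed below the filter of 1 FPKM in 3 libraries and had no limma value. Erbb3 was at 3.64 FPKM in TIM-a, 3.87 in TIM-e and 0.755 in TIM-f, and between 0.0298 and 0.240 FPKM in the other 5 TIM libraries. It differed from Sox10 in the glands. AG held 0.141, 0.103 and 0.130 FPKM of Erbb3 and AGM held 0.271, 0.320, 0.346, 0.591 and 0.643 FPKM, with no overlap. Cdh19 was at 1.33 FPKM in TIM-a, 1.20 in TIM-e and 0.802 in TIM-f, against at most 0.413 FPKM (TI-c) outside TIM.

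The 5 genes did not keep 1 ratio in the libraries where they were high. Foxd3 was 0.913 times Sox10 in TIM-a, 1.34 times in TIM-e and 2.41 times in TIM-f. Fabp7 was 0.371, 0.217 and 1.81 times Sox10 in the same libraries, and Cdh19 was 0.162, 0.0782 and 0.674 times. TIM-f therefore held more Foxd3, Fabp7 and Cdh19 for each unit of Sox10 than TIM-a or TIM-e did.

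S100b (chromosome 10, 76085090 to 76097159, plus strand, GRCm39) was highest in the glands, with TI again the lowest group. AG held 0.289, 1.36 and 1.19 FPKM, AGM held 3.51, 3.4, 2.12, 0.669 and 3.03 FPKM, TI ranged from 0 to 0.035 FPKM with a median of 0.0131, and TIM ranged from 0 to 2.44 FPKM with a median of 0.122. The AGM mean was 2.55 ± 1.18 FPKM (SD, n = 5) and the AG mean 0.947 ± 0.575 FPKM (SD, n = 3). Every TI library was below every AG library. In TI, 7 of the 8 libraries had 3 reads or fewer. S100b fell by 0.89 in TI vs AG (SE 0.31, limma FDR = 0.0184) and by 1.30 in TIM vs AGM (SE 0.26, FDR = 0.000158). It entered the fit mainly through the glands (2 AG, 4 AGM, 0 TI and 1 TIM libraries at 1 FPKM). These falls are therefore not independent of the filter. Exact permutation tests on FPKM, which use no filter, gave an adjusted p of 0.0202 for TI vs AG and 0.0194 for TIM vs AGM. In TIM vs TI it was 0.42 higher (SE 0.23, FDR = 0.19), while an exact permutation test on FPKM gave an adjusted p of 0.0194. In AGM vs AG it was 0.83 higher (SE 0.33, FDR = 0.0657) and in TIM vs AG 0.48 lower (SE 0.31, FDR = 0.206), and neither passed the threshold. Without AG-b or AG-c the TI vs AG call was lost (FDR = 0.11 and 0.09).

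Adipocyte genes were set beside S100b. The summed level of 7 of them (Adipoq, Plin1, Cidec, Lep, Cfd, Fabp4 and Pparg) lay between 92.1 and 751 FPKM for AG and between 307 and 1223 FPKM for AGM. TI libraries had 0.61 to 2.74 FPKM and TIM libraries 0.0964 to 53.2 FPKM. All 7 fell in TI vs AG (27.7% of all tested genes did). In AGM vs AG 4 rose (14.6% of all tested genes did) and 3 did not pass, and the medians of the sums were 543 FPKM in AG and 553 FPKM in AGM. TIM-e (53.2 FPKM) and TIM-a (16.3 FPKM) had the highest sums among the tumors, as they had the most S100b. Fat cells also express S100b, and their part in these values was not tested. Across all 24 libraries Sox10 did not share this order. It was at 0.125 FPKM in AGM-b, which had the highest adipocyte sum, and at 1.19 FPKM in TIM-f, which had the lowest. Among the tumors, TIM-e and TIM-a had the most Sox10 too (15.3 and 8.24 FPKM). Within TIM they held the 2 highest values for 6 of 7 adipocyte, 5 of 7 adrenal cortex and 4 of 6 fibroblast genes. This held for 7 of the 8 markers and 12.4% of all tested genes. Over all 24 libraries it held for 0 genes of those 3 other lists. The part of these cells in the values of Sox10 was not tested.

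**Figure D2:**
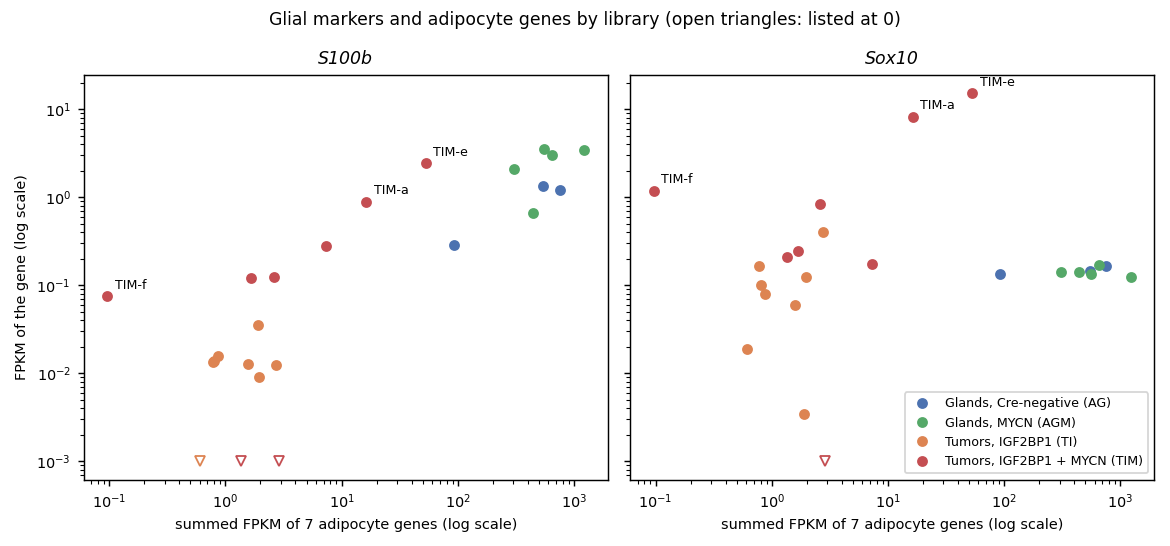
FPKM of S100b (left) and Sox10 (right) against the summed FPKM of 7 adipocyte genes, both on log axes, with 1 point per library coloured by group and open triangles for libraries listed at 0. S100b is highest in the glands at the right, while Sox10 stays between 0.125 and 0.168 FPKM there and is highest in TIM-e and TIM-a.

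Gfap (chromosome 11, 102778159 to 102791738, minus strand, GRCm39) reached 1 FPKM in no library. It was at 0.122, 0.113 and 0.221 FPKM in AG and between 0.0594 and 0.0906 FPKM in AGM, and the 2 groups did not overlap. TI ranged from 0 to 0.0472 FPKM with a median of 0.0094, below all AG libraries, and TIM from 0 to 0.268 FPKM with a median of 0.0328, highest in TIM-e and TIM-a. By exact permutation tests (two-sided, adjusted over 5 comparisons), Gfap gave p = 0.0606 for TI vs AG and 0.0893 for AGM vs AG. Of the 15 such tests on Erbb3, Cdh19 and Gfap, 0 passed 0.05 after adjustment and 3 did before it. The smallest unadjusted p that these two-sided tests can give is 0.0357 for AGM vs AG and 0.0121 for either tumor group vs AG. Gfap, whose groups did not overlap, gave these values in AGM vs AG and TI vs AG.

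Groups did not overlap for 2 of the 8 genes in TI vs AG, both lower (S100b and Gfap), beside 19.9% of all genes of the table lower without overlap. In AGM vs AG this held for 1 gene higher (Erbb3) beside 19.1% of all genes, and for 2 lower (Gfap and Mbp) beside 21.3%. With 8 genes, counts this small are near what the table as a whole showed.

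Mbp (chromosome 18, 82493207 to 82603763, plus strand, GRCm39) shared the pattern of Sox10 only in part. It was at 0.695, 0.709 and 0.750 FPKM in AG and at 0.689, 0.633, 0.599, 0.679 and 0.609 FPKM in AGM, the narrowest spread of the 8 genes relative to its level in the glands. TI ranged from 0.68 to 1.61 FPKM with a median of 1.36, and TIM from 0.275 to 2.67 FPKM with a median of 1.1. TIM-a (2.67), TIM-g (2.23) and TIM-e (1.98 FPKM) were above all libraries outside TIM, and the other TIM libraries were not. Mbp was higher by 0.40 in TI vs AG (SE 0.23, limma FDR = 0.142) and by 0.42 in TIM vs AGM (SE 0.19, FDR = 0.0559), and neither passed. With the spread taken from AG and TI alone, the TI vs AG difference passed (FDR = 0.0185). Mbp entered the fit only through 7 TI and 4 TIM libraries, so this pass is not independent of the filter. The oligodendrocyte genes Opalin and Ermn were without a read in all 24 libraries, and Mobp and Mog were at most at 0.02 FPKM. Olig1, of the same list, was at 0.179 to 1.14 FPKM in AGM and at most at 0.152 FPKM in the tumors, and the summed list was highest in AGM (0.25 to 1.24 FPKM).

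Of the 8 genes, 5 were tested across all genes by limma, and Sox10, Foxd3 and Fabp7 entered only because 3 TIM libraries reached 1 FPKM, so counts over the 5 support nothing. The comparisons also share groups (AG in 3 of them, TIM in 3), so their values are not independent. In TI vs AG, 1 of 5 was lower and 0 higher, beside 27.7% lower and 24.6% higher of all tested genes. In TIM vs TI, 2 were higher (10% of all genes) and 0 lower (12.9%). In TIM vs AGM, 2 were higher (31.9%) and 1 lower (33.4%). In TIM vs AG, limma called 0 of 5 (22.5% of all genes higher and 28.5% lower), with 2 at an unadjusted p below 0.05 and 1 by limma-voom. In AGM vs AG, it called 0 of 5 (14.6% higher and 14.0% lower), with 1 at an unadjusted p below 0.05 and 0 by limma-voom.

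The calls for Foxd3 and Fabp7 rested on few libraries. Leaving out TIM-a and TIM-e with the tested genes kept, Foxd3 was 0.54 higher in TIM vs TI (SE 0.19, limma FDR = 0.053) and 0.55 higher in TIM vs AGM (SE 0.21, FDR = 0.0247). Fabp7 was then 0.43 higher in TIM vs TI (FDR = 0.125) and 0.35 higher in TIM vs AGM (FDR = 0.143). With the filter applied again, Sox10, Foxd3 and Fabp7 all dropped out, and S100b, of which TIM-a and TIM-e hold the most in TIM, was 0.78 lower in TIM vs AG (FDR = 0.00589). Leaving out TIM-a, TIM-e or TIM-f alone put both genes below the filter and so ended both calls. In TIM vs TI the call of Foxd3 was also lost without TI-a, TI-b, TI-c, TI-e, TI-g or TI-h (FDR from 0.0514 to 0.0572), and in TIM vs AGM that of Fabp7 without AGM-a, AGM-b, AGM-c or AGM-e (FDR from 0.0535 to 0.0579). Sox10 passed in TIM vs TI without TIM-b, TIM-c, TIM-d or TIM-h (FDR from 0.0306 to 0.0484).

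Scaling bore on comparisons with AGM. With FPKM recomputed from the reads outside extreme genes, the median of all genes was shifted by -0.34 in AGM vs AG, -0.14 in TIM vs AG, -0.12 in TIM vs TI and 0.24 in TIM vs AGM. The share of calls that were higher went from 51.2% to 21.8% in AGM vs AG, from 43.6% to 29.9% in TIM vs TI and from 48.8% to 59.9% in TIM vs AGM. Relative to these shifts, Foxd3 remained higher in TIM vs TI (2.53) and TIM vs AGM (2.26), Sox10 likewise (2.00 and 1.62, FDR = 0.0339 and 0.029 before the shift was taken off), and S100b lower in TIM vs AGM (2.50 lower than the median gene). By limma-voom Sox10 did not pass (FDR = 0.249 and 0.293). With the spread of the 2 groups only, Foxd3 (FDR = 0.106 and 0.0925) and Fabp7 (FDR = 0.0899 and 0.109) did not pass in TIM vs TI and TIM vs AGM.

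**Figure D3:**
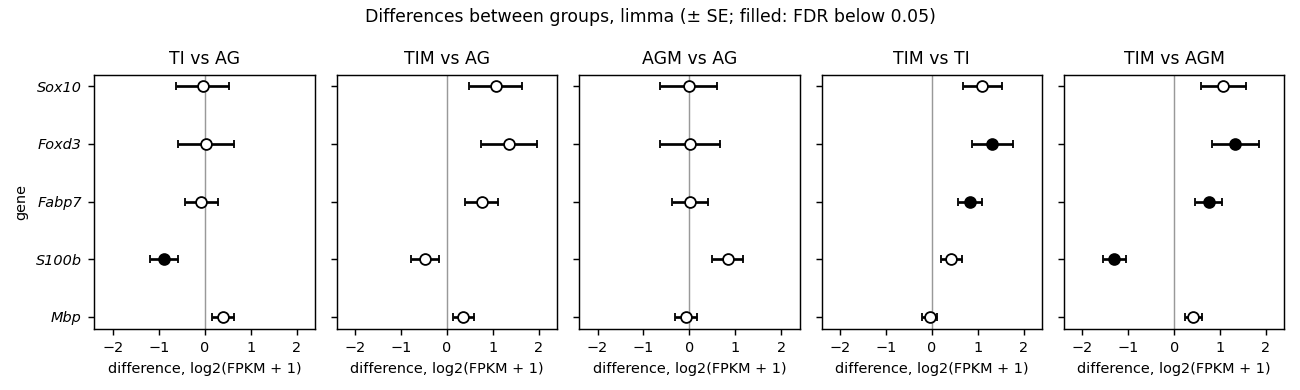
Differences of group means on the log2(FPKM + 1) scale for the 5 markers tested by limma (points, with SE bars; filled where the FDR is below 0.05) in 5 comparisons. Filled points are S100b in TI vs AG (-0.89) and TIM vs AGM (-1.30), and Foxd3 and Fabp7 in TIM vs TI and TIM vs AGM.

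Genes of non-myelinating and satellite glia followed Sox10. In all 10 genes of this list (Scn7a, Lgi4, Gpr37l1, Kcnj10, Apod, Matn2, Art3, Plekhb1, Entpd2 and Col28a1) TIM-a and TIM-e held the 2 highest of the 24 values. Their summed level was 3.93 to 4.38 FPKM for AG and 2.91 to 3.78 FPKM for AGM. For TI it was 0.375 to 12.3 FPKM and for TIM 0.763 to 186 FPKM. Of 5 tested, 3 rose in TIM vs TI by limma (10% of all tested genes did) and 1 by limma-voom. Lgi4, Col28a1 and Plekhb1 entered the test only through 3 TIM libraries, so this count supports nothing. The 3 genes were Apod, a secreted lipid carrier of nerve (2.74, SE 0.69, limma FDR = 0.00757), Lgi4, a secreted protein that glia need to ensheath axons (0.90, SE 0.32, FDR = 0.0453), and the collagen Col28a1 (0.63, SE 0.22, FDR = 0.044). Apod also rose in TIM vs AG (3.38, SE 0.94, FDR = 0.00453) and TIM vs AGM (2.73, SE 0.79, FDR = 0.00473), as did Col28a1 in the latter (0.71, SE 0.25, FDR = 0.0173). Without TIM-a and TIM-e, Apod still rose in TIM vs TI (1.81, FDR = 0.0326), whereas Lgi4 (0.35, FDR = 0.127) and Col28a1 (0.27, FDR = 0.194) did not pass. Gpr37l1, a receptor of satellite glia, was at 12.4 FPKM in TIM-e, 4.09 in TIM-a and at most 0.25 FPKM outside TIM. No gene of this list passed in TI vs AG or AGM vs AG (limma; 1 of 5 in each at an unadjusted p below 0.05 and 1 in each by limma-voom).

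**Figure D4:**
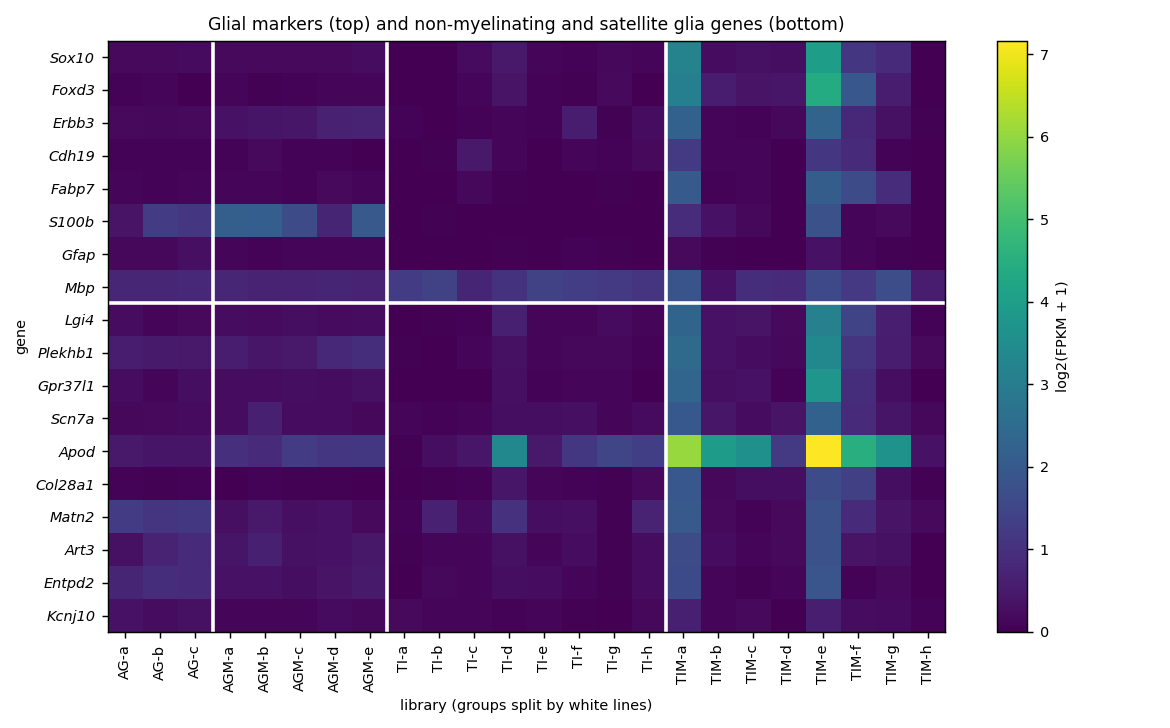
Heat map of log2(FPKM + 1) for the 8 glial markers (above the line) and the 10 genes of non-myelinating and satellite glia (below it) in 24 libraries, with white lines between groups. The columns of TIM-e and TIM-a are the brightest for Sox10, Foxd3, Erbb3 and all 10 lower genes, with Apod reaching 142.6 FPKM in TIM-e.

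Of the myelin genes, Mal, a membrane protein of myelin and epithelia, fell in both tumor groups vs AG, by 0.68 in TI (SE 0.20, limma FDR = 0.00627) and by 0.65 in TIM (SE 0.20, FDR = 0.00894). Mal reached 1 FPKM only in 2 AG libraries and 1 TIM library, so these falls are not independent of the filter. In TIM vs TI limma called 0 of the 5 tested genes of the myelin list (0 at an unadjusted p below 0.05, 0 by limma-voom). Cnp, an enzyme of myelinating glia that is also made elsewhere, was highest of all 24 libraries in TIM-e (8.88 FPKM) and TIM-a (7.25 FPKM). TIM-a and TIM-e held the 2 highest of the 24 values for 2 of the 14 genes of the myelin list, beside 1.72% of all tested genes.

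Of the 12 genes of glial precursors and neural crest, 5 were tested. Gfra3, the artemin receptor of sympathetic neurons and Schwann cell precursors, was between 0.47 and 0.64 FPKM in AG, 3.51 and 56.7 in TI and 3.74 and 22.5 in TIM. It rose in TI vs AG (4.33, SE 0.56, limma FDR = 7.89e-07) and TIM vs AG (2.67, SE 0.56, FDR = 0.000341), and fell by 1.66 in TIM vs TI (SE 0.41, FDR = 0.00653). Gfra3 reached 1 FPKM in all TI and TIM libraries and in no gland, so its rises vs AG are not independent of the filter. TIM-e had the lowest Gfra3 of the TIM libraries, 3.74 FPKM, although it had the most Sox10. Zeb2, a transcription factor of crest cells and of blood vessels and leukocytes, fell in TI, TIM and AGM vs AG (by 0.92, 0.99 and 0.84), and Ednrb, an endothelin receptor, fell in both tumor groups (by 0.64 and 0.71). In all, 1 of 5 rose and 3 fell in TI vs AG (median -0.55) and in TIM vs AG (median -0.64). Of all tested genes, 24.6% rose and 27.7% fell in TI vs AG, and 22.5% and 28.5% in TIM vs AG (median 0.00 in both). The 3 that fell (Zeb2, Ednrb and Ets1) entered the test only through the 3 AG libraries. Their falls vs AG are therefore not independent of the filter, and these counts support nothing. Pax3 had no read in AG or AGM and at most 3 reads in any tumor. Sox2 was highest in TIM-e (0.37 FPKM) and TIM-a (0.27 FPKM), and Dhh, the hedgehog ligand of Schwann cells, reached 0.63 and 0.41 FPKM in the same libraries. These libraries held the 2 highest of the 24 values for 3 of the 12 genes of this list, and not for the others.

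Of the 9 neuregulin and ErbB genes, Adam17 and Bace1, which cleave neuregulins, were tested. Adam17 fell in TIM vs AG by 0.61 (SE 0.11, limma FDR = 7.35e-05), in AGM vs AG by 0.53 (FDR = 0.0021) and in TIM vs TI by 0.35 (FDR = 0.00437), and Bace1 rose in TIM vs AGM by 0.27 (SE 0.11, FDR = 0.0319). Adam17 entered the test only through 3 AG and 3 TI libraries, so its falls are not independent of the filter. Erbb2, the partner of Erbb3, reached its highest values of the 24 libraries in TIM-e (0.78 FPKM) and TIM-a (0.59 FPKM), beside 0.48 to 0.55 FPKM in AG. It was the only 1 of the 9 genes with this order.

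Across the 24 libraries, the genes most like Sox10 on the log2(FPKM + 1) scale were Lgi4 (Pearson's r = 0.982, Spearman's rho = 0.835), the muscle gene Myoz1 (0.968, 0.443) and X9430069I07Rik, as the table spells it (0.954, 0.42). Leaving out TIM-a and TIM-e, r was 0.931 for Lgi4 but 0.728 for Myoz1. The same 3 genes were nearest to Foxd3 (r from 0.977 to 0.992). Fabp7 was nearest to the collagens Col20a1 (0.973) and Col28a1 (0.953) and to X9430069I07Rik (0.955). S100b was nearest to Cox7a1 (0.967), a mitochondrial gene of muscle and fat, and to Acss1 and Gpd1 (0.939 for both). Mbp had no close neighbour, with Agrn (0.802), Mvb12b (0.787) and Bicra (0.774) nearest. Within the 16 tumors, after each group's mean was taken off, Sox10 was nearest to Plekhb1 (0.993) and Pdlim4 (0.99), Foxd3 to Lgi4 (0.991), Plekhb1 (0.987) and Rxrg (0.983), Fabp7 to Col20a1 (0.978), Colca2 (0.976) and X9430069I07Rik (0.943), S100b to Adprhl1 (0.996), Bcan and Pck1 (0.993 for both), and Mbp to Dydc2 (0.842), Tgfa (0.826) and Hpse2 (0.815). These r are descriptions over libraries that share TIM-a and TIM-e as extremes, and several neighbours were near 0 reads in whole groups. X9430069I07Rik had no read in 5 of the 8 TIM libraries and at most 1 per library outside TIM. Myoz1 was at 49.3 FPKM in TIM-e with a TIM median of 0.0028. Hpse2 was at 425 FPKM in TIM-e with 5 TIM libraries at 0. Colca2, Dydc2 and Adprhl1 had at most 2 reads per library in AG and TI. In AGM their means were 27.1, 10.3 and 3.25 FPKM.

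Markers of other cells were set beside the pattern of TIM-a and TIM-e. The melanocyte gene Tyr had no read in any library and Tyrp1 was at most at 0.01 FPKM. The astrocyte gene Aqp4 was at most at 0.02 FPKM, while the 6 genes of the astrocyte list, among them the enzymes Aldh1l1 and Aldoc, summed to 29.5 to 79.1 FPKM in AGM and 5.73 to 6.54 FPKM in AG. Within TIM that sum was highest in TIM-e (5.98 FPKM) and TIM-a (2.22 FPKM). The summed fibroblast genes (Col1a1, Col1a2, Dcn, Lum, Pdgfra and Pdgfrb) ranged from 6.46 to 63.4 FPKM in TI, highest in TI-d, and from 3.85 to 31.2 FPKM in TIM, highest in TIM-e. TI-d also had the most Sox10 and Foxd3 of TI (0.398 and 0.304 FPKM). The 7 adrenal cortex genes summed to 642 to 662 FPKM for AG and 4245 to 5321 FPKM for AGM, and in the tumors to 0.0173 to 9.98 FPKM for TI and 0.281 to 9.28 FPKM for TIM, again highest in TIM-e among TIM. The chromaffin and neuroblast genes summed to 168 to 1601 FPKM in TI, highest in TI-f. In TIM they summed to 191 FPKM (TIM-f) to 3899 FPKM (TIM-e). Endothelial sums were highest in TI-d within TI (20.2 FPKM) and in TIM-e within TIM (7.95 FPKM). Within TIM the leukocyte and epithelial sums were instead highest in TIM-c (9.58 FPKM) and TIM-h (4.64 FPKM). The part of these cells in the values of the glial genes was not tested.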

How the data were processed

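Poly(A) RNA of 24 mouse samples was sequenced strand-specifically. Per the methods and the submitters' processing notes, the authors trimmed reads with cutadapt 2.8, aligned them to mm39 with HISAT2 2.1.0, handled alignments with SAMtools 1.10, counted reads with featureCounts 2.0.0, corrected counts between runs with ComBat-seq and scaled them by TMM in edgeR 3.40. The deposited unit is FPKM, with a gene length column. The correction precedes every value, and its effect could not be undone. The deposited columns of fold changes and p-values are the authors' own comparisons and were not used.

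Groups came from the labels and columns were assigned to groups by name, with letters in column order. The 10171 genes that reached 1 FPKM in 3 or more libraries were fitted with limma 3.58.1 (R 4.3.3, eBayes with trend) on log2(FPKM + 1), a scale that understates changes of low genes, with all 24 libraries and FDR (Benjamini-Hochberg) of 0.05. Genes below the filter were tested by exact two-sided permutation of mean FPKM, adjusted over 5 comparisons. Whole reads, as corrected by the authors, were recovered from FPKM and gene length (100.0% of values whole within 0.01). Their number sets the counting precision, and floors cover counting error only. These reads gave limma-voom and recomputed FPKM as alternatives, with other pseudocounts and filters, the spread of 2 groups only, each library left out, and, chosen after seeing the data, TIM-a and TIM-e left out. The model was tested on simulated data. The members and lists were chosen with earlier results of these data known. Named are all members, up to 3 genes of each companion list with the largest difference among those past the FDR in each comparison other than TIM vs AGM, and the 3 genes most like each tested member. Gpr37l1, Cnp, Pax3, Sox2, Dhh, Erbb2, Bace1, Olig1, Aldh1l1 and Aldoc were added after their values were seen. Some genes that the rule names are not reported here. Mag is in both the myelin and the oligodendrocyte lists. Positions are from GENCODE M39 (GRCm39), promoters from RefSeq (GRCm38.p6).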

Additional observations from a re-analysis of the deposited data

Results flagged for a closer look

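A library was marked where its gap to the nearest other library of its group, divided by the range of the group, passed Dixon's 95% critical value. Of the 24 sets of 1 gene in 1 group of 4 or more libraries, 10 were marked. For independent, normally distributed values chance would mark about 1 in 20. These FPKM are skewed, some are near 0 and the genes share libraries, so that rate does not apply and the count supports nothing. In TIM, TIM-e stood above the others for Foxd3 (20.4 FPKM, others 0 to 7.52) and S100b (2.44 FPKM, others 0 to 0.890). In TI, TI-d stood above the others for Sox10 (0.398 FPKM, others 0.0034 to 0.167) and Foxd3 (0.304 FPKM, others 0 to 0.127). TI-c stood above the others for Cdh19 (0.413 FPKM, others 0.0038 to 0.142) and Fabp7 (0.112 FPKM, others 0 to 0.0321), and TI-f for Erbb3 (0.501 FPKM, others 0.0104 to 0.185) and Gfap (0.0472 FPKM, others 0 to 0.0222). TI-b held the highest S100b of TI (0.035 FPKM, others 0 to 0.0158), a level of few reads. In AGM, AGM-b held the highest Cdh19 (0.130 FPKM, others 0.0167 to 0.049). Within TI, Sox10 and Foxd3 were thus highest in another library than Cdh19 and Fabp7.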

How the results depend on the processing

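No paired analysis was possible because the columns carry no replicate number that matches the labels. No value changed sign with the main or the alternative value past the threshold. Among values past no threshold the sign changed 18 times, for 7 differences. That of Erbb3 in TIM vs AGM went from 0.665 FPKM to -0.22 FPKM without TIM-a and TIM-e, and the other 6 had main values between -0.05 and 0.03. Of the 5 markers tested, the number called in TI vs AG (1) was 2 without a filter and 2 with the spread of 2 groups, and 0 to 1 with each library left out. In TIM vs AG (0) it was 1 with a pseudocount of 0.1, with recomputed FPKM, with limma-voom and without TIM-a and TIM-e, and 0 to 2 with each library left out. In AGM vs AG (0) it was 0 to 1, with 1 (S100b, FDR = 0.0128) without AGM-d. In TIM vs TI (2) it was 4 with a pseudocount of 0.1, 1 without a filter, 0 with the spread of 2 groups, 0 by limma-voom and 0 without TIM-a and TIM-e, and 0 to 3 with each library left out. In TIM vs AGM (3) it was 1 with the spread of 2 groups, 5 with recomputed FPKM and 1 without TIM-a and TIM-e, and 1 to 5 with each library left out. Of the 15 exact tests (0 called), 2 (Gfap in TIM vs AG and TIM vs AGM) passed without TIM-a and TIM-e, which hold the highest Gfap of TIM, and 0 with each library left out. For the companion lists, TI vs AG (6) gave 16 with recomputed FPKM and 0 with 1 FPKM required in every library (2 to 7 with each library left out). TIM vs AG (8) gave 13 without a filter, 15 recomputed and 0 with every library (4 to 10). AGM vs AG (3) gave 7 without a filter, 11 with 2 groups, 9 recomputed, 8 by limma-voom and 0 with every library (1 to 3). TIM vs TI (5) gave 3 with 2 groups, 11 recomputed, 3 by limma-voom, 3 without TIM-a and TIM-e and 0 with every library (3 to 6). TIM vs AGM (6) gave 15 without a filter, 16 recomputed and 1 with every library (3 to 7). Requiring 1 FPKM in every library left none of the 8 markers to test. The causes were not tested. Depth limits S100b and Fabp7 in TI, where most libraries held 3 reads or fewer.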
